A study of Chlamydomonas reinhardtii with 15 samples.

Results

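The transcripts described here are those whose microarray signal was strongly lower after exposure of Chlamydomonas reinhardtii to each of 4 chemicals. The members were selected on the deposited log2 values: a transcript was taken when the mean of its 3 treated arrays lay at least 2.5 log2 units (5.66-fold) below the mean of the 3 control arrays under neutral red, tert-butylhydroperoxide, DBMIB and 2(E)-hexenal alike, and when its control mean was 6 or more. One probe that met these conditions is kept out of the set by its definition. The set holds 94 of the 16283 probes measured, or 0.577%, and 10008 probes had a control mean of 6 or more. Because treated minus control values chose the set, those values are given below as a description and are not tested.

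Cells of the wild-type strain 4A+, in the 137c background, were grown with acetate in light. The cultures were divided, and the parts stood in the light (100 µmol photons m-2 s-1, 25 °C) over 2 h without a chemical (control) or with 3 µM neutral red (NR), 100 µM tert-butylhydroperoxide (tBOOH), 2 µM DBMIB or 0.3 mM 2(E)-hexenal (Hexenal). Each of the 5 groups had 3 replicates, described in the labels as independent biological ones, and all 15 RNA samples were hybridised in 1 colour to custom arrays. The chemicals were given at different doses, so a difference between treatments compares these exposures and not equal amounts.

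Chlamydomonas is a unicellular green alga with 1 large chloroplast, in which light-driven electron transport can produce reactive oxygen species. Neutral red is a photosensitising dye that forms singlet oxygen in light, and tBOOH is an organic hydroperoxide that oxidises lipids and thiols. DBMIB is a quinone that blocks electron flow at the cytochrome b6f complex, and hexenal is an unsaturated aldehyde that reacts with thiols. DBMIB and hexenal are electrophiles, which can modify cysteine residues of proteins. The level of a transcript falls when its synthesis slows or its decay quickens, and an array signal does not tell these apart. The values used here are scaled between arrays. They show a transcript relative to the others, and not the number of cells or the total RNA per cell.

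Of the 94 probes, 89 belong to the array's specific class and 5 to its cross-hybridising class, which may read related transcripts. The latter are 5.32% of the set, against 6.39% of all probes. A locus tag of the v5.5 annotation could be tied to 62 probes, each to a different locus, and none of these loci had a second probe. The other 32 probes are named by the JGI transcript number that the array carries. The tables used here pair no locus with a gene symbol or a product, so no function is given for any member. Members with a locus tag made up 66.0% of the set, against 42.6% of all probes.

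Deposited values are log2 signals made alike in distribution across arrays, and all changes against control are differences of these values. Over the 94 transcripts, NR gave a median change of -3.24, tBOOH of -3.81, DBMIB of -3.19 and Hexenal of -4.59. These medians correspond to signals 9.43-fold, 14.0-fold, 9.16-fold and 24.1-fold below control. Over all probes the median changes were 0.01, 0.10, 0.06 and 0.13 in the same order. Hexenal also gave the lowest single value, -7.64, and the lowest values under tBOOH, DBMIB and NR were -7.33, -5.96 and -5.93. A change of -5 or less was reached by 36 members under Hexenal, 16 under tBOOH, 4 under DBMIB and 1 under NR. Of all probes, 1.99% reached -2.5 or less with NR, 5.88% with tBOOH, 5.96% with DBMIB and 6.09% with Hexenal; the limit is the one that chose the members, so nothing is read from their own count.

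**Figure D1:**
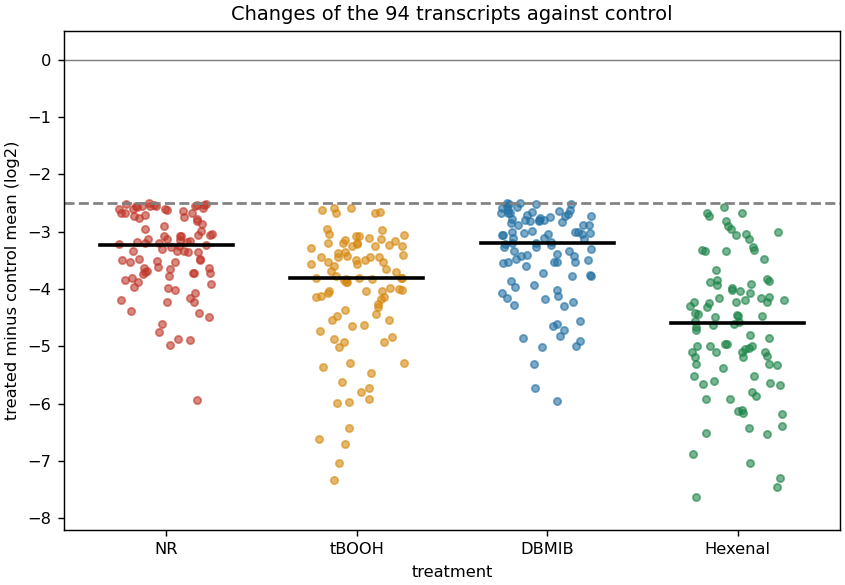
Treated minus control mean (log2, vertical axis) of the 94 transcripts under each of the 4 treatments; each point is 1 transcript, black bars are medians and the dashed line is the limit of -2.5. The median lies at -4.59 under Hexenal and between -3.19 and -3.81 under the other 3 treatments.

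The 4 treatments did not lower every member alike. Taking values as measured, those at background included, the lowest of the 4 changes was that under Hexenal for 64 members, under tBOOH for 20, under NR for 7 and under DBMIB for 3. The smallest of the 4 was found under DBMIB for 44 members and under NR for 40. Within a transcript the 4 changes spanned 1.88 log2 units in the median. They were closest together for transcript 294875, with a span of 0.36, and farthest apart for CHLRE_09g389150v5, with a span of 4.63. Averaged over the treatments, the change was -4 or less for 38 members and -5 or less for 6.

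All 12 treated arrays lay below all 3 control arrays for 90 of the 94 members, as they did for 12.1% of all probes, a property that the choice of members favours. The exceptions were CHLRE_06g307500v5, CHLRE_04g223300v5 and transcripts 305729 and 318704, whose control arrays differed widely among themselves. Taken 1 treatment at a time, the arrays lay below all controls for 91 members with NR, 94 with tBOOH, 92 with DBMIB and 94 with Hexenal. The same held for 25.4%, 29.9%, 30.5% and 28.1% of all probes, and nothing is read from the members' counts, which the choice favours.

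**Figure D2:**
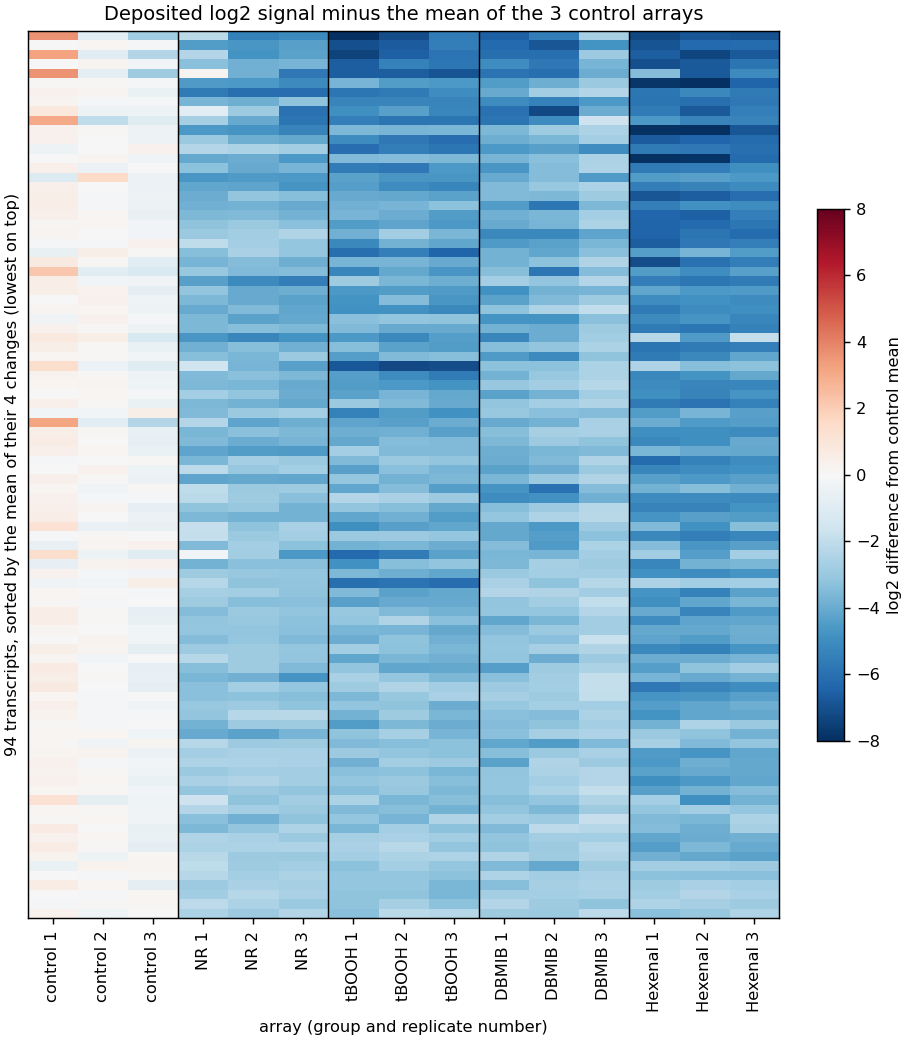
Deposited log2 signal of each of the 94 transcripts (rows, lowest mean change on top) on each of the 15 arrays (columns), as the difference from that transcript's mean over the control arrays. Treated arrays lie below the control mean except NR replicate 1 of CHLRE_04g223300v5 (11.32), and for 64 members the lowest of the 4 group means is that of Hexenal.

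Many members came close to the background of the array after treatment. Detection was taken from the scanner's flag for spots well above background, and a share of 0.5 of a probe's spots was required on each array. Of the 94 members, 43 were well above background on all 12 treated arrays and 2 on none. On no array of the group were 27 members above it under Hexenal, 17 under tBOOH, 8 under DBMIB and 6 under NR. The corresponding shares of all probes were 14.1%, 11.2%, 10.6% and 8.71%. For such a probe the treated signal is only an upper limit, and its change is given as nominally at least N-fold lower.

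Values of every array follow for the 10 loci with the lowest mean change. CHLRE_10g426050v5 stood at 16.57, 12.50 and 11.02 on the control arrays. All treated arrays read below the lowest control array, with 11, 8.58 and 9.09 under NR, 5.97, 6.80 and 7.47 under tBOOH, 7.35, 7.32 and 10.46 under DBMIB, and 6.78, 6.03 and 6.66 under Hexenal. Its changes were -3.81, -6.62, -4.99 and -6.88 in that order. The control arrays span more than 5 log2 units, and without control replicate 1 the changes were -2.20, -5.01, -3.38 and -5.27. Without control replicate 3 they were -4.98, -7.79, -6.16 and -8.05, without NR replicate 1 the NR change was -4.53, and without DBMIB replicate 3 the DBMIB change was -6.03.

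CHLRE_08g358580v5 had tight controls, at 13.04, 13.23 and 12.76 (mean 13.01 ± 0.24, SD, n = 3). Its NR arrays read 9.67, 9.14 and 9.32, its tBOOH arrays 6.44, 7.58 and 7.26, its DBMIB arrays 8.05, 7.27 and 9.27, and its Hexenal arrays 5.96, 6.31 and 7.19. No treated group overlaps with control. The NR arrays were above the tBOOH and Hexenal arrays, while DBMIB replicate 3 lay within the range of the NR arrays. The locus was 12.4-fold, 60.4-fold, 28.1-fold and 92.0-fold below control under NR, tBOOH, DBMIB and Hexenal.

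CHLRE_04g223300v5 was the most variable member among the controls, at 14.73, 10.34 and 8.30. It read 11.32, 7.28 and 5.41 under NR, 4.505, 4.51 and 4.23 under tBOOH, 5.25, 5.08 and 7.15 under DBMIB, and 7.63, 4.40 and 6.04 under Hexenal. NR replicate 1 lay above 2 of the 3 control arrays, so these groups overlap when replicate numbers are disregarded. Same-numbered NR arrays minus control gave -3.41, -3.06 and -2.89. Under the other treatments same-numbered differences were uneven. They were -10.2, -5.83 and -4.07 with tBOOH, -9.48, -5.26 and -1.16 with DBMIB, and -7.10, -5.94 and -2.27 with Hexenal. Its changes were -3.12, -6.71, -5.30 and -5.10, and without control replicate 1 they were -1.32, -4.91, -3.50 and -3.30. Without control replicate 3 they were -4.53, -8.12, -6.71 and -6.51. The NR change was -4.78 without NR replicate 1 and -1.82 without NR replicate 3, the DBMIB change -5.96 without DBMIB replicate 3, and the Hexenal change -5.91 and -4.29 without Hexenal replicates 1 and 2.

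CHLRE_14g617550v5 was even across the controls (11.89, 11.89 and 11.66). Under NR it read 7.31, 7.20 and 6.69, under tBOOH 8.08, 7.37 and 7.22, and under DBMIB 7.37, 7.89 and 8.87. Hexenal arrays were lower still, at 4.02, 3.67 and 5.39, which is 175-fold below control, against 26.9-fold, 19.1-fold and 13.6-fold under the other 3 treatments.

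CHLRE_09g389150v5 and CHLRE_12g527800v5 showed the same ordering of treatments. CHLRE_09g389150v5 went from 11.85, 11.62 and 11.12 in control to 6.92, 6.80 and 6.18 under NR, 7.96, 7.83 and 7.86 under tBOOH, and 7.91, 8.69 and 8.99 under DBMIB. Its Hexenal arrays read 3.62, 3.38 and 4.68, and only 1 of these 3 was well above background; the change of -7.64 there was the lowest under Hexenal. CHLRE_12g527800v5 read 9.34, 9.56 and 9.06 in control, then 5.22, 5.37 and 4.71 under NR, 5.77, 5.87 and 5.72 under tBOOH, and 5.59, 5.98 and 6.81 under DBMIB. At 1.42, 1.46 and 3.18 its Hexenal arrays were all at background, nominally at least 67.9-fold below control. For both loci each treated group lay below the control arrays, with Hexenal apart from the rest.

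CHLRE_17g708750v5 had control values of 10.07, 9.74 and 9.77. They compare with 6.17, 5.98 and 6.61 under NR, 4.59, 4.57 and 4.56 under tBOOH, 4.81, 4.47 and 5.28 under DBMIB, and 4.04, 3.82 and 4.12 under Hexenal, where 1 of 3 arrays was well above background. CHLRE_01g045350v5 read 9.08, 8.82 and 8.38 in control, 5.77, 4.87 and 4.69 under NR and 4.88, 5.10 and 6.02 under DBMIB. It was not well above background under tBOOH (3.72, 3.03 and 2.67) or Hexenal (2.11, 2.43 and 2.58), nominally at least 49.2-fold and 51.0-fold below control. In both loci the NR arrays lay above the tBOOH and Hexenal arrays.

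CHLRE_12g505250v5 had the lowest measured change of all members under NR, at -5.93, which is only a limit. Its control values were 7.82, 7.71 and 6.94, and the NR arrays (1.81, 1.49 and 1.37), the tBOOH arrays (1.70, 1.86 and 2.496) and the Hexenal arrays (1.70, 2.35 and 1.86) were all at background. Nominally it was at least 36.7-fold, 25.3-fold and 21.1-fold below control there. Under DBMIB it kept 3.43, 4.72 and 5.18, with 1 of 3 arrays well above background and a change of -3.05. CHLRE_12g558526v5, the last of the 10, read 7.45, 6.60 and 7.08 in control, 3.76, 3.02 and 3.30 under NR and 2.40, 3.60 and 4.57 under DBMIB (1 of 3 arrays well above background). It was not well above background under tBOOH (1.48, 1.34 and 2.45) or Hexenal (1.41, 1.49 and 2.13), nominally at least 18.8-fold and 15.6-fold below control.

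**Figure D3:**
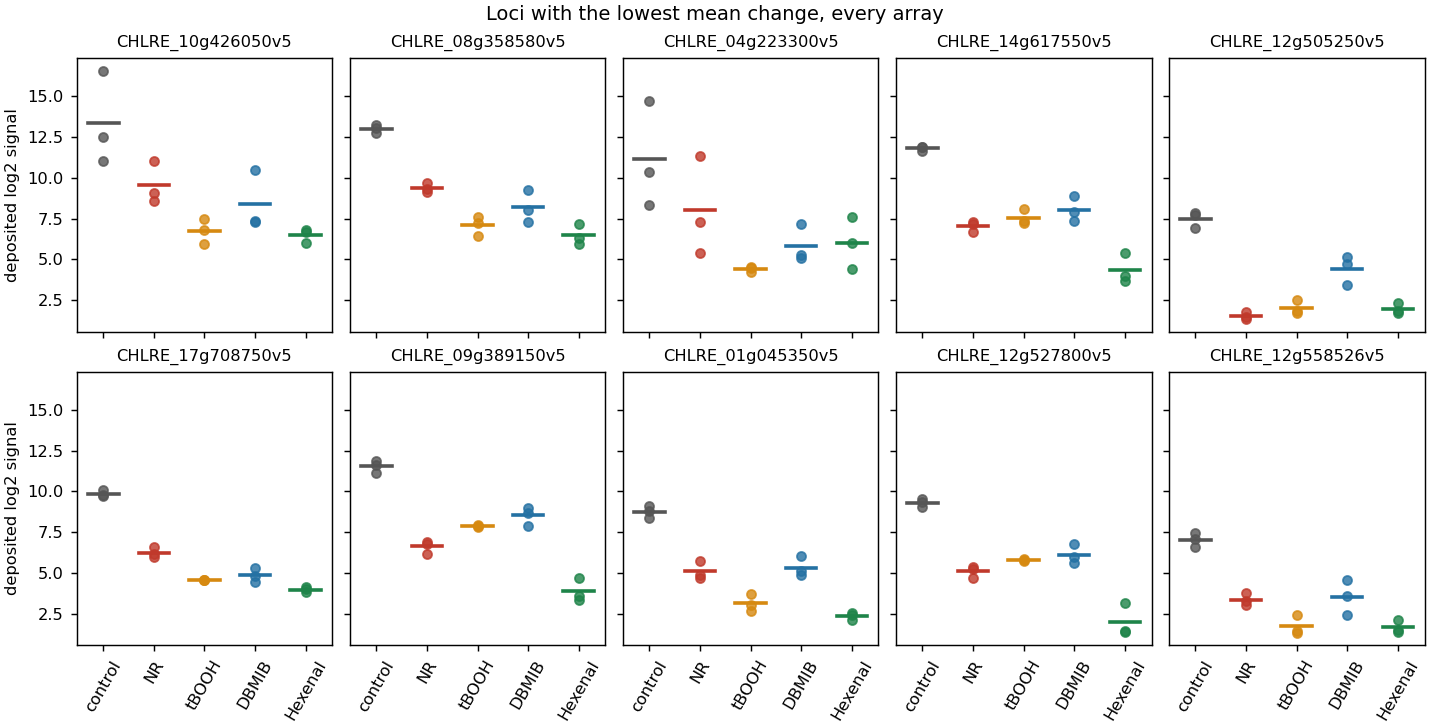
Deposited log2 signal (vertical axis) of the 10 loci with the lowest mean change on every array, by group; points are single arrays and bars are means of 3. Control arrays lie above all treated arrays in each panel except that of CHLRE_04g223300v5, and CHLRE_10g426050v5 and CHLRE_04g223300v5 have widely spread controls.

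Which treatment lowered a transcript most can be tested, because the limits that chose the members bound each treatment against control and do not fix the differences between treatments. The same treated arrays served for both, however. These tests used the scanner signals of the 12 treated arrays, as log2 signal minus the array's 75th percentile, in 1 limma model over all probes with Benjamini-Hochberg adjustment. All 94 members entered them, and 82 were well above background on every array of at least 1 treatment. Per comparison, 3 (NR with DBMIB) to 14 (tBOOH with Hexenal) members were well above background on no array of either treatment. Calls between such signals are counted below. In at least 1 of the 6 comparisons 85 members were called at an adjusted p under 0.05, as were 82.7% of all probes. The remaining 9 members were called in none, and 4 were called in all 6, as were 4.05% of all probes.

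Hexenal lowered the members further than the other treatments did. Compared with DBMIB, 63 members were called higher under DBMIB, 60 of them by at least 2-fold, against 24.6% of all probes. In the other direction limma called 0 members, against 17.4% of all probes. At an unadjusted p under 0.05 there was 1 member, and the share of all probes at that looser limit was not counted. The median difference was 1.55 log2 units over the members and 0.19 over all probes. Compared with NR, 68 members were higher under NR and 1, CHLRE_02g144650v5, was higher under Hexenal, nominally by at least 2.33-fold with no NR array well above background, against 27.5% and 16.5% of all probes. The probe of CHLRE_02g144650v5 is of the cross-hybridising class and has 1 spot. It was well above background on 2 of 3 Hexenal arrays, and its limma adjusted p was 0.0455. Compared with tBOOH, 46 members were higher under tBOOH and 4 under Hexenal, where all probes gave 26.5% and 19.6%. The largest differences were those of CHLRE_09g389150v5, which was 32.4-fold higher under DBMIB than under Hexenal (log2 difference 5.02, SE 0.383, adjusted p = 1.27e-06) and 20.3-fold higher under tBOOH than under Hexenal (4.34, SE 0.383, adjusted p = 1.30e-06). With normexp, a background correction that adds an offset of 50 to every spot, 12 members were called against DBMIB, 11 against NR and 32 against tBOOH, and both differences of CHLRE_09g389150v5 were 2.47. Shares of all probes under this and the other alternative settings below are not given. Those counts are therefore not read as particular to the members. CHLRE_12g527800v5 was nominally at least 10.1-fold higher under DBMIB than under Hexenal (adjusted p = 2.96e-06), and with normexp its difference was 1.09 and not called. In the comparison with NR, the measured differences of transcript 206231 and CHLRE_01g055050v5 were the largest, but only as bounds, nominally at least 7.04-fold and 7.31-fold higher under NR (adjusted p = 7.60e-08 and 1.12e-05), since neither was well above background on any Hexenal array. With normexp their differences were 0.96 and 1.02 and not called. Folds above both bounds were also measured for members detected on all 6 arrays. They include CHLRE_10g426050v5 and CHLRE_18g750047v5, at 9.995-fold and 9.46-fold (adjusted p = 0.00446 and 1.33e-06), the latter read by a cross-hybridising probe with 1 spot. Others are CHLRE_08g358580v5 and CHLRE_03g184700v5, at 8.70-fold and 8.01-fold (adjusted p = 0.000158 and 7.46e-06).

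For 42 members the signal under Hexenal was below that under each of the other 3 treatments, with a call in all 3 comparisons, as for 6.22% of all probes. With normexp the count was 6. The 42 include CHLRE_14g617550v5, CHLRE_17g708750v5, CHLRE_09g389150v5, CHLRE_01g045350v5 and CHLRE_12g527800v5 of the loci given above, the last of which was not called against DBMIB with normexp.

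Between the other treatments the differences were smaller, and tBOOH was the lower of each pair for most called members. Against NR, 40 members were higher under NR and 3 under tBOOH (24.9% and 22.6% of all probes). With normexp, 1 and 2 members were called in place of 40 and 3. Those higher under tBOOH than under NR were CHLRE_09g389150v5, transcript 305522 and transcript 155404, by 2.29-fold, 2.71-fold and 2.24-fold (adjusted p = 0.0211, 0.00314 and 0.00168). Against DBMIB, 4 members were higher under tBOOH and 31 under DBMIB (25.0% and 25.1% of all probes). Centred on the spike-in features instead, 9 were higher under tBOOH and 17 under DBMIB, and with normexp 0 and 3.

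Between NR and DBMIB 29 members were called, the fewest of the 6 comparisons under this scaling. With spike-in centring 41 were called there and 26 between tBOOH and DBMIB, and with normexp 5 there and 3 in each of the comparisons of tBOOH with NR and with DBMIB. Under NR 13 were called higher and under DBMIB 16, against 28.4% and 28.3% of all probes, and the median difference was -0.01 log2 units. That balance rests on the scaling, since 38 were higher under NR and 3 under DBMIB with spike-in centring, and 1 and 4 with normexp. Spike-in centring moved all probes as well, to median changes against control of -0.13 under NR and -0.73 under DBMIB. The 2 largest called differences were both toward DBMIB. For CHLRE_12g505250v5 the DBMIB signal was nominally at least 4.99-fold above that of NR (limma adjusted p = 6.52e-06), with 1 of 3 DBMIB arrays and no NR array well above background, and with normexp the difference of -0.14 was not called. Transcript 305522 was 4.65-fold higher under DBMIB (log2 difference -2.22 for NR minus DBMIB, SE 0.329, adjusted p = 9.35e-05). Its deposited values were 12.03, 11.26 and 11.20 in control, 7.18, 6.39 and 5.99 under NR, 8.65, 7.81 and 7.57 under tBOOH, 8.75, 8.35 and 9.17 under DBMIB, and 5.95, 5.71 and 5.93 under Hexenal.

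**Figure D4:**
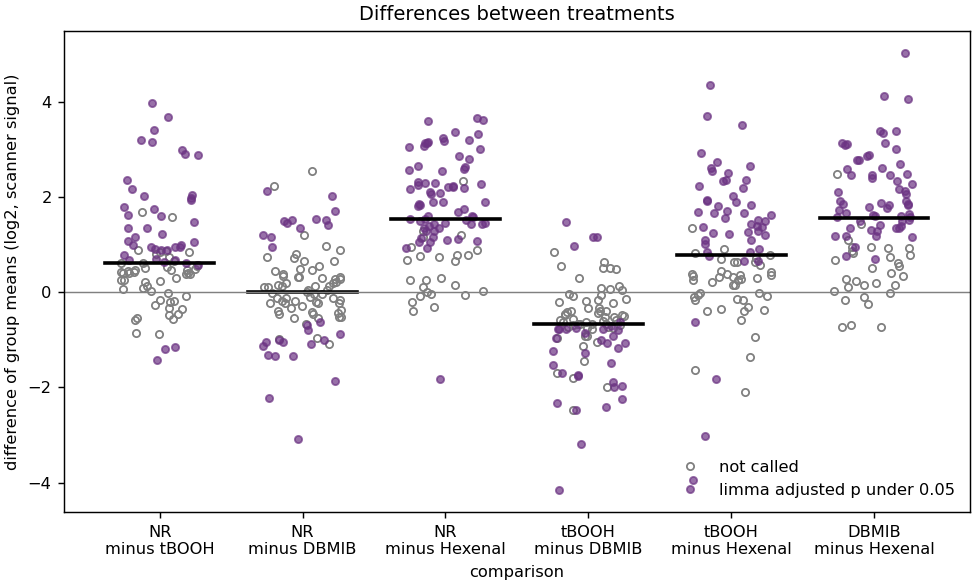
Difference between 2 treatments (log2 scanner signal, first minus second, vertical axis) for each of the 94 transcripts in the 6 comparisons; filled points have a limma adjusted p under 0.05, open points do not, and black bars are medians. The points of the comparisons with Hexenal lie mostly above 0, with medians of 1.53 for NR, 0.77 for tBOOH and 1.55 for DBMIB.

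Smaller groups of members had another treatment as the extreme one. Under tBOOH 4 members were below each of the other 3 treatments with a call in all 3 comparisons, a smaller share than the 7.26% of all probes. These are CHLRE_06g293950v5, CHLRE_14g625000v5 and transcripts 298370 and 423524. Transcript 298370 was 15.7-fold higher under NR, 18.0-fold higher under DBMIB and 15.4-fold higher under Hexenal than under tBOOH (adjusted p = 6.92e-05, 2.89e-05 and 5.10e-05), and 2 of 3 tBOOH arrays were well above background. Its deposited values under tBOOH were 3.91, 3.49 and 3.64, and those of the other 9 treated arrays ran from 6.38 to 9.13, without overlap. The log2 difference between NR and tBOOH, 3.97, was 3.16 without NR replicate 1. With normexp none of the 3 differences was called, at 0.32 for NR minus tBOOH, -0.20 for tBOOH minus DBMIB and -0.01 for tBOOH minus Hexenal.

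CHLRE_14g625000v5 read 7.13, 7.17 and 7.86 in control and was even under NR (5.10, 4.19 and 4.26), DBMIB (4.77, 4.18 and 5.09) and Hexenal (4.91, 4.61 and 4.64). On no tBOOH array was it well above background (1.37, 1.48 and 1.31). It was nominally at least 5.39-fold higher under DBMIB than under tBOOH (adjusted p = 5.01e-06). The sign of this difference turned with normexp, to a log2 value of 1.04 for tBOOH minus DBMIB. CHLRE_06g293950v5 was 7.95-fold higher under NR than under tBOOH (adjusted p = 9.75e-06), with 14.08, 15.18 and 14.79 in control and 8.63, 9.22 and 8.28 under tBOOH.

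NR left 9 members above each of the other treatments, as it did 10.6% of all probes, and DBMIB 8 members, against 9.89%. With spike-in centring the counts were 24 and 1. Among the 8 under DBMIB, CHLRE_04g222600v5 was well above background on none of the 12 treated arrays. Its place there rests on signals at background. CHLRE_12g505250v5, also among the 8, was well above background on 1 DBMIB array alone. CHLRE_08g358580v5 belongs to the first group, 5.09-fold higher under NR than under tBOOH, 2.31-fold higher than under DBMIB and 8.70-fold higher than under Hexenal (adjusted p = 0.00129, 0.0437 and 0.000158). CHLRE_07g342200v5 belongs to the second, 2.54-fold higher under DBMIB than under NR, 5.32-fold higher than under tBOOH and 6.81-fold higher than under Hexenal (adjusted p = 0.00244, 2.66e-05 and 1.83e-05). CHLRE_04g223300v5, which had the second largest difference between NR and tBOOH (3.68, SE 1.22, adjusted p = 0.0246), gave 2.02 without NR replicate 1 and 4.91 without NR replicate 3, and was not called in the first case. It was also not called without tBOOH replicate 1, 2 or 3 (adjusted p of 0.0544, 0.0520 and 0.0589), nor with normexp (0.79).

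The control arrays of some members differed from each other far more than those of most probes. An SD of 1 or more over the 3 control arrays was found for 11 of the 94 members (11.7%), against 1.19% of probes with a control mean of 6 or more; this limit was set after the values were seen. The control values also chose the members, and a single high control array raises the mean that admits a probe, so nothing is read from this excess. The 11 are CHLRE_10g426050v5, CHLRE_04g223300v5, CHLRE_04g222600v5, CHLRE_10g439500v5, CHLRE_02g144650v5, CHLRE_05g248400v5, CHLRE_06g307500v5, CHLRE_01g054500v5 and transcripts 305729, 318704 and 298370. Control replicate 1 was the highest control array for 10 of them, all but CHLRE_04g222600v5, and for 39.0% of probes with a control mean of 6 or more. NR replicate 1 was the highest NR array for 10 of the 11 and for 40.5% of those probes. DBMIB replicate 3 was the highest DBMIB array for 9 of the 11 and for 32.5% of those probes. The median SD of the 11 was 0.41 under tBOOH, 0.42 under Hexenal, 1.28 under NR and 1.15 under DBMIB. That in control, 1.90, is high because the control SD picked the 11, so the treated SDs are not set against it. Transcript 318704, CHLRE_04g222600v5, CHLRE_10g439500v5 and CHLRE_02g144650v5 were well above background on no tBOOH array. All but the last of these were so on no Hexenal array either.

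CHLRE_05g248400v5 shows the pattern plainly. Its control arrays read 15.99, 11.96 and 10.48 and its NR arrays 10.44, 8.59 and 8.92. Under tBOOH it lay at 8.62, 8.46 and 8.82, under DBMIB at 8.80, 9.02 and 10.21, and under Hexenal at 8.84, 8.26 and 8.42. All treated arrays lay below the controls, and NR replicate 1 came closest to control replicate 3. In CHLRE_06g307500v5 the controls read 15.20, 13.42 and 12.81 and the NR arrays 13.61, 11.04 and 9.22, with NR replicate 1 above 2 of the 3 controls. Transcript 305729, which had the lowest mean change of all members and has 1 spot on the array, read 14.76, 10.37 and 8.43 in control and 4.65, 5.63 and 8.54 under DBMIB. Leaving out control replicate 3 or NR replicate 1 in place of it, 108 and 110 probes would meet the conditions that chose the set. Of these 11 members, 2 would meet the conditions without control replicate 1. Over the whole array 70 probes would meet them then, 62 of which are among the 94. Whether control replicate 1 differs from the other controls in its culture or in its RNA was not tested.

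**Figure D5:**
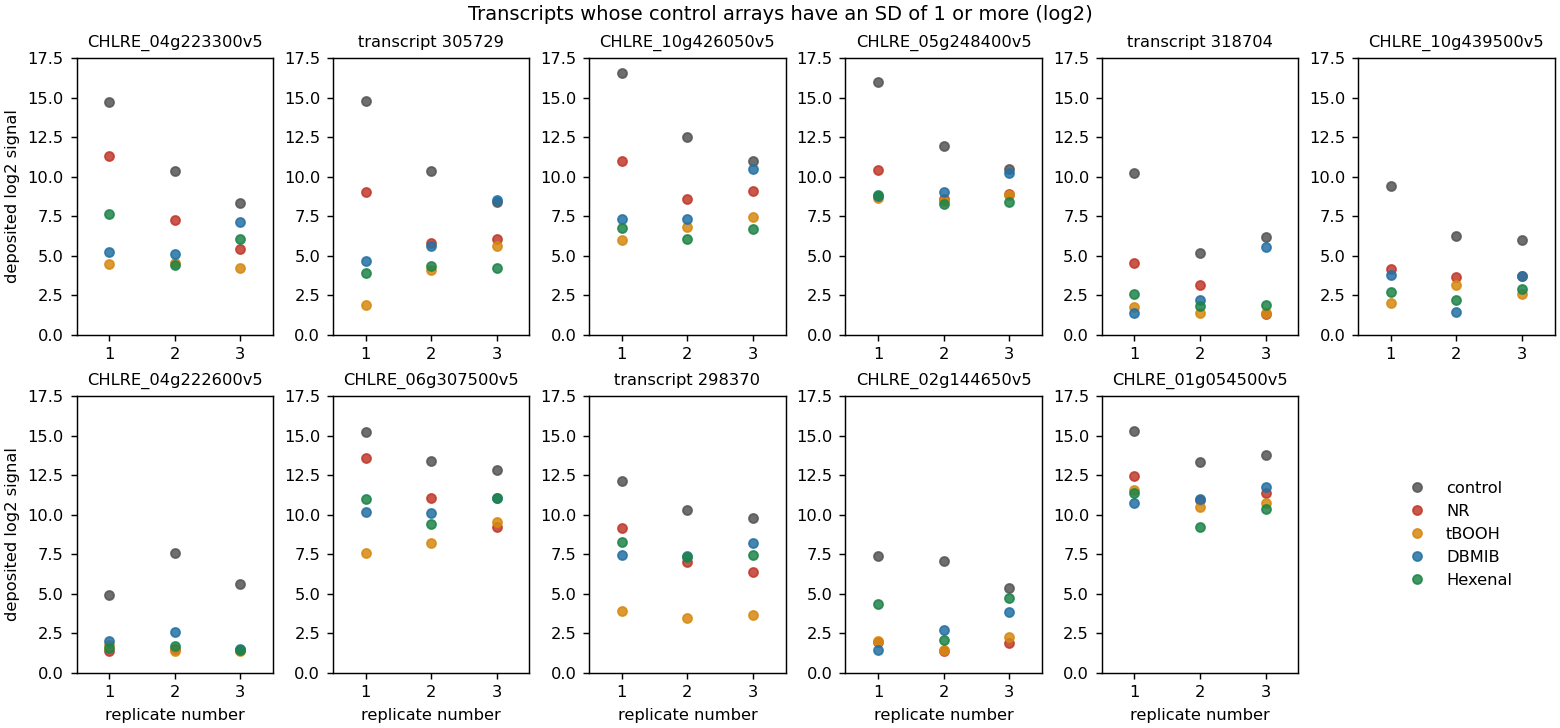
Deposited log2 signal (vertical axis) by replicate number (horizontal axis) of the 11 transcripts with an SD of 1 or more over the control arrays; each point is 1 array, coloured by group. Control replicate 1 is the highest control array in all panels but that of CHLRE_04g222600v5. The median SD is 0.41 for tBOOH and 0.42 for Hexenal, and 1.90 for the control points, whose SD picked the transcripts.

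The remaining 83 members had control SDs under 1, and over all 94 the median SD was 0.40 in control, 0.32 with NR, 0.37 with tBOOH, 0.55 with DBMIB and 0.34 with Hexenal. Probes with a control mean of 6 or more had median SDs of 0.25, 0.19, 0.19, 0.24 and 0.17 in the same order. Within an array, replicate spots of a member differed by a median SD of 0.12, against 0.10 for all probes.

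The place in the genome could be compared for the 62 members with a locus tag, and not for the other 32. In the order of loci of the v5.5 assembly, 3 pairs of member loci lie within 10 loci of each other. Such pairs were not counted among other measured loci, so nothing is read from this number. CHLRE_09g394213v5 and CHLRE_09g394251v5 are directly adjacent. The first read 7.03, 7.31 and 6.83 in control, with differences of -3.36 (NR), -3.68 (tBOOH) and -2.76 (DBMIB) from it. Well above background were 1 of 3 NR, 1 of 3 tBOOH and 2 of 3 DBMIB arrays. Under Hexenal, with no array well above background, this locus was nominally at least 14.5-fold lower. The second read 9.75, 9.59 and 8.70 in control, with differences of -3.33, -3.56, -2.88 and -5.16, and 1 of 3 Hexenal arrays was well above background. CHLRE_12g489750v5 and CHLRE_12g490100v5 have 6 loci between them, and CHLRE_06g293750v5 and CHLRE_06g293950v5 have 3. In the last pair CHLRE_06g293950v5 was lowest under tBOOH (-5.97). The change of CHLRE_06g293750v5 was -3.43 under tBOOH and -4.85 under DBMIB, with 2 of 3 and 1 of 3 arrays well above background. Under Hexenal, where no array was well above background, this locus was nominally at least 27.7-fold below control.

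The limit of -2.5 cuts through a continuous range of values. Just inside it are CHLRE_06g250300v5, CHLRE_11g467754v5 and CHLRE_01g028950v5, whose highest changes were -2.5023 under DBMIB, -2.5027 under NR and -2.505 under DBMIB. Just outside are CHLRE_04g223100v5 at -2.4967 under tBOOH, transcript 205511 at -2.4953 under NR and CHLRE_17g714250v5 at -2.49 under DBMIB. CHLRE_04g223100v5 had changes of -2.97, -4.85 and -6.08 under NR, DBMIB and Hexenal. With limits of -2 and -3 the set would hold 226 and 43 transcripts.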

How the data were processed

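The arrays were custom Agilent 4 × 44 K designs with probes for the JGI version 4 models, and 15 Cy3-labelled RNA samples were measured, per the labels. The authors deposited log2 values for all 15 arrays; every column has the same distribution (median 6.953), so they were quantile-normalized, which was worked out from the values. For the 12 treated arrays the deposited scanner tables give background-corrected signal intensity per spot on a linear scale, not normalized between arrays, and flags of 0 or 1, per the file headers. How the log2 values were computed is not stated in the labels used here. Scanner tables of control arrays were not used here.

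The members were chosen on the deposited values; they and all lists were chosen with earlier results of these data known. Treatments were compared on log2 processed signals from which each array's 75th percentile was subtracted, spots flagged as outliers (1.48% to 1.78%) left out and spots of a probe averaged, with limma 3.58.1 (lmFit, eBayes) in R 4.3.3, without a pseudocount or a filter on dim probes. Tests were two-sided and adjusted over 16283 probes. No spot was saturated, and 72.7% to 89.8% of probes were well above background per array. The model was tested on simulated data. A bound on a fold replaces each dim value, array by array, with the lowest value of any detected probe where that is higher, and then compares the group means; such bounds are nominal. The number of arrays limits the precision.

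Transcript numbers below 200000 were matched to older locus tags in a RefSeq table of assembly Chlamydomonas_reinhardtii_v5.5 and the build postdates the probes, so coordinates are left out. The table holds 0 symbols other than tags, so the planned gene lists, which need symbols, could not be counted.

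Named with every array were the 10 loci with the lowest mean change; further named were the 2 largest called differences per comparison and the 3 probes on each side of the limit. Others were named after their values were seen. The alternatives were other scalings, background correction, spot and probe filters, a replicate block and leaving out each array. The tables hold 0 columns of other samples.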

Additional observations from a re-analysis of the deposited data

How the results depend on the processing

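The number of transcripts that meet the conditions was 94, and 226 or 43 with limits of -2 or -3. Centred on the 10 spike-in features it was 167. That scaling lowered the changes by 0.14 (NR), 0.29 (tBOOH), 0.79 (DBMIB) and 0.43 (Hexenal), and the highest change of any member was then -2.65. Leaving out 1 array gave 70 to 110, the lowest without control replicate 1. Other settings gave counts within 1.5 times.

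Leaving out 1 treated array, the members called numbered 33 to 47 between NR and tBOOH, 23 to 32 between NR and DBMIB, 61 to 71 between NR and Hexenal, 30 to 40 between tBOOH and DBMIB, 43 to 53 between tBOOH and Hexenal, and 60 to 65 between DBMIB and Hexenal. Those set apart from each other treatment numbered 34 to 44 (lower under Hexenal), 3 to 5 (lower under tBOOH), 6 to 13 (higher under NR) and 6 to 10 (higher under DBMIB). With normexp on the median signals, added after the data were seen because the tables hold no mean signal, the calls in the order of the 6 comparisons were 3, 5, 11, 3, 32 and 12, and those set apart 6, 1, 0 and 2. The offset of 50 added there compresses dim signals by construction. An added constant keeps the order of signals within an array. Between arrays, each scaled by its own percentile, it need not keep that order. The normexp setting also differs in its median signals and its background step. Which of these changed the calls, or the sign given below, was not tested. Spike-in centring, also added later, gave 24 higher under NR and 1 higher under DBMIB. Shares of all probes under these alternative settings are not given. CHLRE_14g625000v5 turned sign between tBOOH and DBMIB with normexp, to 1.04.

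Cultures were divided among the treatments, but the labels do not say that a number marks 1 parent culture. Same-numbered treated arrays had correlated deviations over 0.1 in 13 of 18 pairs (range -0.06 to 0.30), and 8 of 12 arrays correlated best with their own number in every other group, a hint of pairing. Since not every pair passed 0.1, the numbers were not used as a block in the reported tests. Same-numbered NR minus control values were -1.59, -2.38 and -3.595 for CHLRE_06g307500v5 and -2.99, -3.30 and -3.38 for transcript 298370. For CHLRE_06g307500v5 they were -7.60, -5.22 and -3.275 with tBOOH, -5.06, -3.33 and -1.76 with DBMIB, and -4.19, -4.01 and -1.73 with Hexenal. For transcript 298370 they were -8.21, -6.78 and -6.125 with tBOOH, -4.66, -2.86 and -1.58 with DBMIB, and -3.85, -2.97 and -2.31 with Hexenal. With the replicate number as a block, 46, 33, 73, 41, 53 and 67 members were called in the 6 comparisons, against 43, 29, 69, 35, 50 and 63 without it, and the conditions applied to same-numbered differences gave 100 transcripts. Slide as a block was not run, since the tables used here name no slide.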

Other observations

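The loci directly next to members were also looked at, though most are not members themselves. Of the 62 member loci, 46 have an adjacent locus with a probe, and these neighbours comprise 64 probes that are not members. Their median changes were -0.17 (NR), -0.43 (tBOOH), -0.76 (DBMIB) and -0.29 (Hexenal), against -0.01, 0.01, -0.05 and 0.07 over all probes with a locus tag. Lower by 1 or more log2 units in all 4 treatments were 14 of the 64 (21.9%), against 8.38% of probes with a locus tag, and 1 was higher by 1 or more in all 4. The share of all probes with a locus tag that were higher by this limit was not counted. Both neighbours of CHLRE_12g527800v5 were among the 14. CHLRE_12g527850v5 had changes of -2.29, -4.40, -3.37 and -5.61 under NR, tBOOH, DBMIB and Hexenal, and CHLRE_12g527750v5 had -2.18, -2.19, -1.85 and -3.14. CHLRE_17g703850v5, next to CHLRE_17g703900v5, had -3.14, -2.65, -2.16 and -4.62. These loci were named after their values were seen, and no test was made.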
